A study of Mus musculus with 2197 samples.

Results

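Mesothelial cells are the cells studied here, taken from mouse pancreas at embryonic day E14.5 and measured in droplets. A barcode, the tag that stands for 1 droplet, counted as mesothelial when it held at least 1 unique molecular identifier (UMI, 1 captured transcript) of Upk3b and at least 1 of Wt1, with 0 UMIs of Ptprc and 0 of Pecam1. Barcodes also needed at least 1000 detected genes and under 10% of their UMIs from mitochondrial genes. In all, 541 of 10170 passing barcodes met this rule, 224 of 3406 in library 1 and 317 of 6764 in library 2.

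The mesothelium is the single-layered sheet that covers the organs and walls of the body cavities. It arises from the mesoderm of the coelomic lining, yet it forms junctions and keratin filaments like an epithelium and carries a glycoprotein-rich free surface. In embryos, mesothelial cells can leave the sheet and contribute fibroblasts and smooth muscle to the organ below, and in the lung they are a known source of Fgf9, a growth factor that acts on mesenchyme. Upk3b encodes a uroplakin of the mesothelial surface. Wt1 encodes a zinc finger transcription factor of the coelomic lining, kidney and gonad.

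The study followed pancreatic lineages in the mouse embryo with single-cell RNA sequencing of sorted cells, and added droplet libraries of E14.5 pancreas made with the 10x Genomics 3′ kit. The droplet cells came from digested whole pancreas without a sort on a reporter. Both libraries carry the same label, and no genotype, strain, sex or number of embryos is given for them in the sources used here. The labels do not say that the libraries came from separate embryos. The main tests took out the general difference between the libraries. Their p-values measure how much the differences between cell classes varied from library to library, over all classes in the fit. That variation may be technical.

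In the 2 libraries, UMIs were also summed for 4 other classes. Mesenchyme was defined by Col3a1 at 5 or more UMIs per 10000 and no Upk3b (1557 and 3404 barcodes in libraries 1 and 2). Epithelium needed 2 or more UMIs of Epcam with little Col3a1 (396 and 1115), endothelium 2 or more of Pecam1 (89 and 203), and leukocytes 1 or more of Ptprc (52 and 80). The mesothelial sums held 3018860 and 2574385 UMIs. Library 1 was read more deeply per barcode. A median mesothelial barcode held 10669.5 UMIs there (range 6358 to 41500) and 6934 in library 2 (range 2988 to 25981). Median mesenchymal barcodes were shallower, at 7942 and 4054 UMIs, and median epithelial ones deeper, at 20079.5 and 14081. A bar of 1 UMI is met more easily by a deep barcode, and the part of depth in the share was not tested. No barcode sequence was mesothelial in both libraries, while 32 passing barcode sequences occurred in both.

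The mesothelial share was 6.58% in library 1 (95% exact Clopper-Pearson interval 5.77 to 7.46%) and 4.69% in library 2 (4.195 to 5.22%). These intervals cover counting error only, and they do not overlap. With a minimum of 2000 genes the shares were 7.06% and 7.07%, so among the barcodes with more genes the libraries were nearly equal.

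The values that chose the cells are given as a description. Mesothelial barcodes held a median of 3 Upk3b UMIs in each library, with a highest value of 22 in library 1 and 18 in library 2. Their median Wt1 count was 2 in each library, with highest values of 16 and 17. At the edge of the rule, 52 and 67 of the mesothelial barcodes held exactly 1 Upk3b UMI, and 19 in each library held exactly 1 UMI of both genes. Just outside it lay 47 and 99 barcodes with Upk3b and no Wt1, and 225 and 265 with Wt1 and no Upk3b. Another 56 of 280 and 11 of 328 barcodes with both genes were left out because they also held Pecam1, and no barcode with both genes was left out for Ptprc.

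Free RNA in the droplets could place both marker genes in other cells, so their shares were read in barcodes picked without regard to Upk3b. Among barcodes with 2 or more Pecam1 UMIs, both genes were present in 5.06% in library 1 (178 barcodes, median 18598 UMIs) and 0.88% in library 2 (228 barcodes, median 8425.5 UMIs). Among barcodes with 2 or more Epcam UMIs the shares were 0.34% and 0.59%, at medians of 23513 and 14183 UMIs. Among barcodes with Ptprc, both genes were present in 0 of 70 and 0 of 103, which allows shares of up to 5.13% and 3.52%. Of these 6 shares the highest was that of endothelial barcodes in library 1.

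The label was checked against a list of 20 mesothelial marker genes, 18 of them not used by the rule. A mesothelial barcode held UMIs of a median of 7.5 of these 18 genes in library 1 and 8 in library 2. At least 3 were present in 96.9% and 98.7% of mesothelial barcodes, against 5.01% and 5.73% of mesenchymal ones. After each barcode was thinned to 3000 UMIs, which left out 0 and 1 mesothelial and 0 and 124 mesenchymal barcodes, the shares were 57.6% and 85.4% against 1.86% and 3.41%. Epithelial barcodes, whose keratins are on the list, reached 9.34% and 17.3% after thinning. The markers therefore go with the label in both libraries. Barcodes with exactly 1 Upk3b UMI in library 1 held a median of 7 of the 18, and barcodes with Upk3b but no Wt1 held a median of 5 in each library. Barcodes with Wt1 but no Upk3b held medians of 1 and 2.

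The promoter windows of the chosen cells' genes are shown for Upk3b, the surface gene of the rule, and for Lrrn4, a leucine-rich repeat protein of the mesothelial surface that was among the 12 genes named for the largest rises over mesenchyme (those averaging 50 CPM or more). Of 13 genes looked up (Upk3b and these 12), 10 were matched in RefSeq on GRCm38.p6. Of those, 2 held the letters GGAATG, the core of the TEAD recognition motif, on either strand within the 250 bases before the start that RefSeq gives, and 12.64% of 32851 such windows did. These 2 genes are Upk3b and Lrrn4, so the windows shown are those with a match. The letters AGATAA of the GATA motif were also looked for. They were held by 1 of the 10 genes, Fgf9, and by 9.99% of all windows. The windows of 3 of the 10 genes (Fgf9, Lhx9 and Ptgds) lie inside the gene as GENCODE places it, not before its start. The GGAATG match is in capitals below. The Upk3b window is chr5:136038246-136038495 on the plus strand, where the capitals are the motif read on the opposite strand. The Lrrn4 window is chr2:132880892-132881112 on the minus strand, without the 29 bases that lie within the gene in GENCODE.
Upk3b: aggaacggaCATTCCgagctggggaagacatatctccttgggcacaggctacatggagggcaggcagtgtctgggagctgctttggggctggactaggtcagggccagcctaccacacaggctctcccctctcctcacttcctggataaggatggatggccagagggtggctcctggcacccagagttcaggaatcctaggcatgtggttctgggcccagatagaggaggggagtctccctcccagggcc
Lrrn4: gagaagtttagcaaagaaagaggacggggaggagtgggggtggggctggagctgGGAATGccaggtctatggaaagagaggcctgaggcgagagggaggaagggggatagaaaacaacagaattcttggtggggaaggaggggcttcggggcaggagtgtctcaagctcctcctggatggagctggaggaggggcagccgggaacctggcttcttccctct

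The first comparison asked how mesothelial cells differ from the mesenchyme that lies next to them. Mesothelial cells were higher in surface genes (Podxl, Upk1b, Muc16, Lrrn4), in 16 of 26 keratin and junction genes (among them Krt7, Krt19 and Cgn), in Frem2 and Npnt of the basement membrane, in Aldh1a2 and in the signals Fgf9, Rspo1 and Bmp4. They were lower in Pdgfra, Lum, Bgn and Col6a3 and in the transcription factors Ebf1, Prrx1, Zeb2 and Snai2. Over all mesothelial cells, collagen I and decorin RNA was not shown to differ from that of mesenchyme. Most of these cells also met the Col3a1 bar. Of 12613 genes tested with edgeR's quasi-likelihood test on UMI sums (Benjamini-Hochberg adjusted p under 0.05, library as a block), 1550 were higher (12.3%) and 1553 lower (12.3%), with a median log2 fold change of -0.05 over all genes. Without the library block 628 were higher and 437 lower, and without library 1 the counts were 759 and 650, without library 2 623 and 439. Of the genes named here, Bmp4 (adjusted p = 0.203 without the block), Dkk2 and Tgfb2 did not pass against mesenchyme without the block. Clu and Fgfr1 did not pass without the block or without library 1, and Cdh5, Fn1, Pcna, Sfrp2, Wnt4 and Wnt7b did not without the block or without library 2. Axin2, Cyp26b1, Fgf18, Frem1, Gas1, Laptm5, Sfrp1, Smo and Tead1 failed without the block and without either library. Amhr2, Has2 and Tlx1 failed without library 1, Cldn1, Smad6, Stra6 and Tek without library 2, and Fst without either library.

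Of the 17 marker genes of mesothelium that could be tested, 14 were higher than in mesenchyme, 1 was lower and 2 did not pass, with a median log2 fold change of 4.21. Podxl, a sialomucin of free cell surfaces (chromosome 6, 31519488 to 31563981, minus strand), was at 285 and 458 UMIs per 1000000 (CPM) in the mesothelial sums of libraries 1 and 2 and at 6.81 and 12.8 CPM in mesenchyme. Its log2 fold change was 5.16 ± 0.19 (SE, 2 libraries) with an adjusted p of 8.20e-09. Endothelium held 85.7 and 113 CPM of it. The mesothelial libraries thus lay above both other classes. Lrrn4 (chromosome 2, 132868305 to 132880891, minus strand) was at 113 and 222 CPM against 3.48 and 5.43, and Upk1b, itself a uroplakin, at 55.98 and 101 against 1.45 and 2.75. Muc16, a membrane mucin, was at 28.2 and 49.3 CPM against 0.51 and 1.09, the gene of the list with the highest log2 fold change (5.48 ± 0.37). In none of these genes did the mesothelial and mesenchymal values overlap. This was common, since of all 12613 genes tested 2956 lay higher and 2341 lower in mesothelial cells without overlap.

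Nkain4 was the marker that went the other way, at 27.2 and 55.9 CPM in mesothelial cells and 146 and 271 CPM in mesenchyme (log2 fold change -2.43 ± 0.27). Msln, the mesothelin gene that marks adult mesothelium, was close to absent at 0.66 and 1.17 CPM and passed no filter. C3 was also near 0, at 0.33 and 0.78 CPM. Krt8 was at 21.9 and 26.8 CPM against 7.03 and 22.04 and did not pass (adjusted p = 0.095).

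**Figure D1:**
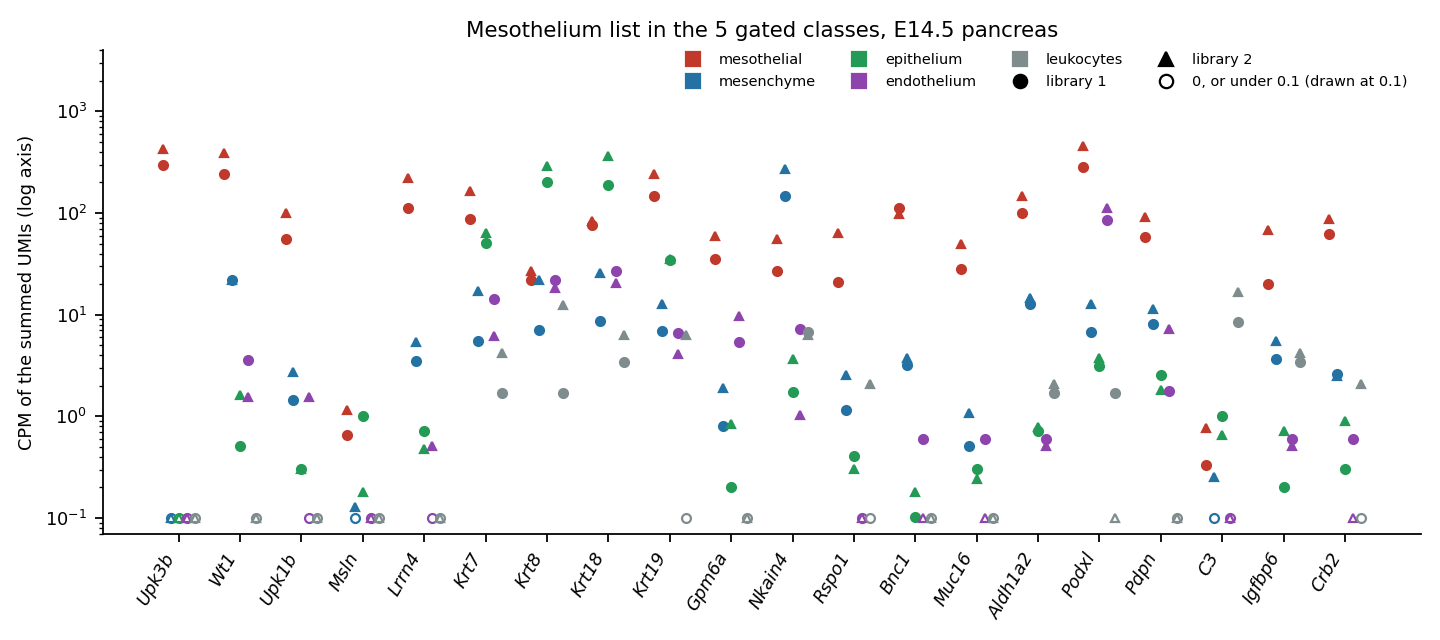
CPM (log axis) of the 20 mesothelial marker genes in 5 cell classes, with 1 point for each library and values under 0.1 drawn as open points at 0.1. Podxl, Lrrn4, Upk1b, Muc16 and Bnc1 lie apart from the other classes in both libraries, Krt8 and Krt18 are highest in epithelium, Nkain4 is highest in mesenchyme, and Msln and C3 stay near the floor.

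By the rule that named the 12 largest rises, the genes furthest above mesenchyme also included Ildr2, an immunoglobulin-like receptor (67.9 and 119 CPM against 1.74 and 3.13), and Ptgds, a prostaglandin D synthase (99.7 and 232 against 2.39 and 6.52). Tm4sf5, a tetraspanin-like membrane protein, was at 108 and 138 CPM against 3.41 and 5.69. Their log2 fold changes were 5.16 ± 0.20, 5.12 ± 0.24 and 4.68 ± 0.19. Each was higher in both libraries. Plxna4, a receptor for semaphorin guidance cues, was at 135 and 110 CPM against 5.14 and 5.37. Klk13, a secreted serine protease, was at 92.8 CPM in library 1 and 27.2 in library 2 against 2.97 and 1.92, and its 2 mesothelial values lay far apart. Crb2, an apical polarity protein, was at 62.3 and 88.2 CPM against 2.61 and 2.49 (log2 fold change 4.77 ± 0.28).

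Among the 8 named genes that were furthest below mesenchyme were 4 transcription factors. Ebf1 (chromosome 11, 44617317 to 45008091, plus strand) was at 4.64 and 2.72 CPM in mesothelial cells against 156 and 161 in mesenchyme (log2 fold change -5.51 ± 0.46). Prrx1, a homeobox factor of fibroblasts, was at 3.64 and 6.99 CPM against 140 and 194. Osr2 was at 3.64 and 14.4 CPM against 138 and 306, and Zeb2 at 9.61 and 13.6 against 233 and 294. The mesothelial values of these factors were a small part of the mesenchymal ones in each library. The others were Tac2, a tachykinin precursor, Rgs5, a regulator of G protein signals known from pericytes, Sparcl1, a secreted matrix protein, and Gap43, with log2 fold changes from -5.005 (Tac2) to -4.56 (Gap43).

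Keratins and cell junctions were mostly higher than in mesenchyme. Of 26 genes tested, 16 were higher, 0 lower and 10 did not pass (median log2 fold change 1.89, beside -0.05 over all genes). Krt7, Krt8, Krt18, Krt19 and Crb2 are also in the mesothelial marker list. Krt19, an intermediate filament keratin, was at 146 and 244 CPM against 6.88 and 12.8 (log2 fold change 4.21 ± 0.24), and Krt7 at 87.5 and 164 against 5.58 and 16.9 (3.43 ± 0.30). The tight junction adaptor Cgn was at 45.1 and 81.2 CPM against 3.77 and 4.79. Cdh3, P-cadherin, was at 38.8 and 48.2 CPM against 3.91 and 3.07. Cdh1, E-cadherin, was at 7.95 and 10.49 CPM against 3.69 and 13.4 and did not pass, with a log2 fold change of 0.10 ± 0.41. Cdh2, N-cadherin, was at 32.1 and 33.02 CPM against 34.2 and 37.9 and did not pass either. The claudins divided, with Cldn1 and Cldn15 higher and Cldn3, Cldn4, Cldn6, Cldn7 and Cldn10 not passing.

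The free surface showed the same direction. Of 13 genes of the apical surface list, 8 were higher, 1 was lower and 4 did not pass (median 2.85). Of the higher genes, Upk1b, Muc16, Podxl and Pdpn were already counted in the mesothelial marker list. Ezr, ezrin, which ties the membrane of microvilli to actin, was at 176 and 166 CPM against 9.93 and 14.3 (log2 fold change 3.74 ± 0.19), and its scaffold partner Slc9a3r1 at 283 and 482 against 18.1 and 26.3 (3.99 ± 0.20). The water channel Aqp1 was at 14.9 and 25.3 CPM against 0.87 and 3.71. Has2, a hyaluronan synthase, was the lower gene, at 1.32 and 1.94 CPM against 16.7 and 11.4. Msn, moesin, an ezrin relative, was at 22.2 and 55.9 CPM against 24.6 and 55.7 and did not pass.

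Single barcodes held keratin and collagen RNA together. The sum of Krt7, Krt8, Krt18 and Krt19 was a median of 2.80 UMIs per 10000 in mesothelial barcodes of library 1 and 4.53 in library 2, with highest values of 20.4 and 30.999. The median was 0 and 0 in mesenchymal barcodes, and 4.01 and 6.29 in epithelial ones. The sum of Col1a1 and Col1a2 was a median of 13.97 and 25.3 per 10000 in mesothelial barcodes, against 20.01 and 31.4 in mesenchyme and 0 and 0 in epithelium. Mesothelial barcodes thus lay near epithelium on the keratin axis and near mesenchyme on the collagen axis in both libraries.

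**Figure D2:**
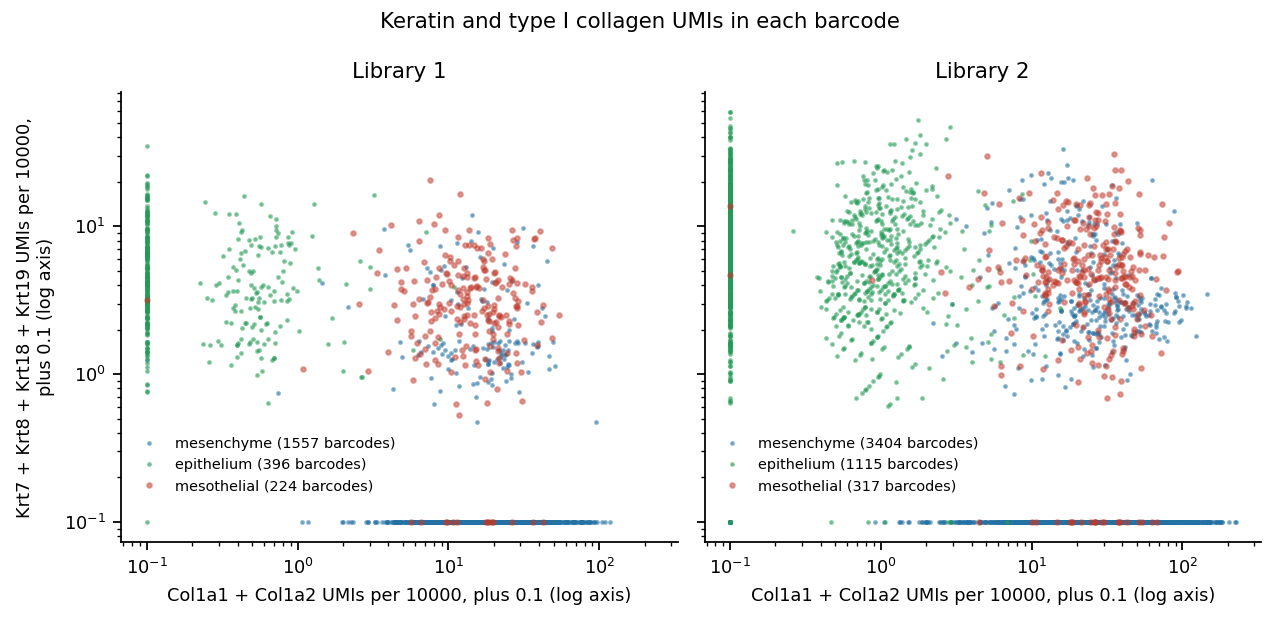
Keratin UMIs per 10000 (Krt7, Krt8, Krt18 and Krt19 summed) against collagen I UMIs per 10000 (Col1a1 and Col1a2 summed) in single barcodes of 3 classes, 1 panel for each library, both axes logarithmic after adding 0.1. Mesothelial barcodes, with median keratin values of 2.80 and 4.53, fill the corner where both sums are high.

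Matrix genes were more often lower than higher. Of 24 genes of the fibrillar and elastic matrix list, 4 were higher, 13 lower and 7 did not pass (median -0.69). Mesenchyme was picked for Col3a1, itself a fibrillar collagen gene, whereas the mesothelial rule set no bar on it. The part of that choice in the lower calls was not tested. Col1a1 was at 760 and 1528 CPM in mesothelial cells and 1146 and 1951 in mesenchyme (log2 fold change -0.55 ± 0.31, not passed), and Dcn, decorin, at 244 and 397 against 238 and 588 (-0.35 ± 0.21, not passed). Lum, lumican, another small leucine-rich proteoglycan, was by contrast at 5.63 and 19.8 CPM against 110 and 418 (-4.52 ± 0.33). Bgn, biglycan, had a log2 fold change of -3.38 ± 0.23 and Col6a3 of -4.12 ± 0.39. Fbln2, an elastic fibre glycoprotein, was the gene of this list with the largest rise, at 208 and 287 CPM against 39.4 and 35.2 (2.64 ± 0.25). Fn1, fibronectin, was at 107 and 291 CPM against 65.1 and 76.4 (1.36 ± 0.32), but its difference had the opposite sign in mesothelial cells with little Col3a1 (-0.59).

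Basement membrane genes moved in both directions, with 9 of 20 higher, 6 lower and 5 not passing (median 0.46). The collagen IV chains divided by pair. Col4a5 was at 42.4 and 71.9 CPM against 7.46 and 7.86 and Col4a6 at 23.5 and 28.7 against 2.25 and 3.45, while Col4a1 was at 6.29 and 6.99 against 49.7 and 117. Their log2 fold changes were 2.77 ± 0.24, 3.11 ± 0.32 and -3.67 ± 0.35. Frem2 and Fras1 encode the Fraser complex, which ties epithelia to the matrix below. Frem2 was at 143 and 303 CPM against 7.61 and 13.8 (4.26 ± 0.24) and Fras1 at 115 and 209 against 20.5 and 32.3 (2.51 ± 0.22), whereas Frem1, of the same complex, was lower (3.98 and 5.05 CPM against 13.9 and 18.3). Npnt, nephronectin, a ligand of integrins, was at 145 and 227 CPM against 14.7 and 14.6, and Lama5, the laminin chain of mature epithelial basement membranes, at 33.1 and 44.7 against 2.83 and 6.07. Both rose.

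Regulators of epithelial-mesenchymal transition were mostly lower, with 1 of 11 higher, 6 lower and 4 not passing (median -1.84). Snai2 was at 13.9 and 14.8 CPM against 136 and 142 (log2 fold change -3.37 ± 0.19) and Zeb1 at 32.1 and 44.3 against 119 and 136 (-1.84 ± 0.17). Vim, vimentin, the mesenchymal intermediate filament, was at 552 and 765 CPM against 776 and 889 and did not pass (adjusted p = 0.078). Tgfb2, a ligand, was the higher gene of the list.

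Secreted signals and their targets were described by pathway. In the retinoic acid list, 3 of 15 genes were higher, 4 lower and 8 did not pass (median 0.39). Aldh1a2, which makes retinoic acid from retinal, was at 99.7 and 147 CPM in mesothelial cells, 12.6 and 14.8 in mesenchyme and 0.71 and 0.78 in epithelium (log2 fold change against mesenchyme 3.06 ± 0.16). Dhrs3, which reduces retinal back to retinol, was also higher (90.4 and 108 against 14.9 and 18.7). Stra6, the cellular retinol importer, and Cyp26b1, which degrades retinoic acid, were lower, at under 2 CPM in each mesothelial library. Rarb, a receptor that is itself a target of retinoic acid, was at 27.2 and 40.4 CPM against 18.0 and 30.6 and did not pass.

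In the Wnt list, 10 of 20 genes were higher, 4 lower and 6 did not pass (median 0.75). Of the ligands and their enhancers, Rspo1 was at 20.9 and 64.1 CPM against 1.16 and 2.56 (log2 fold change 4.35 ± 0.34) and Wnt9a at 11.3 and 17.1 against 1.16 and 1.53 (3.27 ± 0.43). The receptor Fzd4 was at 28.2 and 38.8 CPM against 2.83 and 4.03. The canonical Wnt targets Axin2 (33.1 and 47.002 CPM against 19.8 and 21.5) and Rnf43 (2.98 and 6.22 against 0.29 and 0.51) were also higher. The Axin2 call was lost without the block and without either library, and Lef1 of this list did not pass. The antagonists divided. Dkk2 was lower (18.6 and 8.16 against 89.6 and 45.7) and Sfrp1 lower (170 and 128 against 337 and 225). Sfrp2 was higher (47.4 and 134 against 32.02 and 54.1), but at -0.078 in the mesothelial cells with little Col3a1.

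In the FGF list, 2 of 17 genes were higher, 5 lower and 10 did not pass (median -0.25). The higher ones were both ligands. Fgf9 (chromosome 14, 58070547 to 58112720, plus strand) was at 103 and 79.2 CPM against 4.56 and 2.75 (log2 fold change 4.57 ± 0.30), and Fgf18 at 5.30 and 11.7 against 0.94 and 1.79 (2.51 ± 0.51). Feedback inhibitors that FGF signalling induces were among the lower ones, with Spry1 at 2.65 and 4.27 CPM against 24.3 and 49.9, Spry4 at 0 and 0.78 against 7.32 and 17.3, and Dusp6 at 1.99 and 2.72 against 7.75 and 14.95. Spred1 was lower too, whereas Spry2, Etv4 and Etv5 of this list did not pass. The receptor Fgfr1 was lower by less (36.4 and 52.1 against 66.3 and 67.2). Fgf10, the ligand that pancreatic mesenchyme supplies to the epithelium, was at 13.9 and 11.7 CPM in mesothelial cells and 6.74 and 9.46 in mesenchyme and did not pass.

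In the BMP and TGF-beta list, 8 of 23 genes were higher, 4 lower and 11 did not pass (median 0.39). The ligand Bmp4 was at 93.1 and 116 CPM against 32.1 and 18.7 (log2 fold change 2.03 ± 0.34), Bmp2 at 13.3 and 20.2 against 1.23 and 2.30 (3.12 ± 0.43), and Tgfb3 at 53.3 and 54.8 against 10.9 and 14.1 (2.03 ± 0.20). The inhibitory Smad6, a target of BMP signals, was also higher, and Id1 and Id3 did not pass at log2 fold changes of 0.72 ± 0.27 and 1.05 ± 0.37. Tgfbi, a matrix protein induced by TGF-beta, was lower (8.94 and 22.1 CPM against 141 and 136). In the Hedgehog list, 3 of 9 genes were higher, 0 lower and 6 did not pass (median 0.42). The higher ones were the co-receptors Gas1 and Cdon and the transducer Smo, and Ptch1, a target, did not pass.

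**Figure D3:**
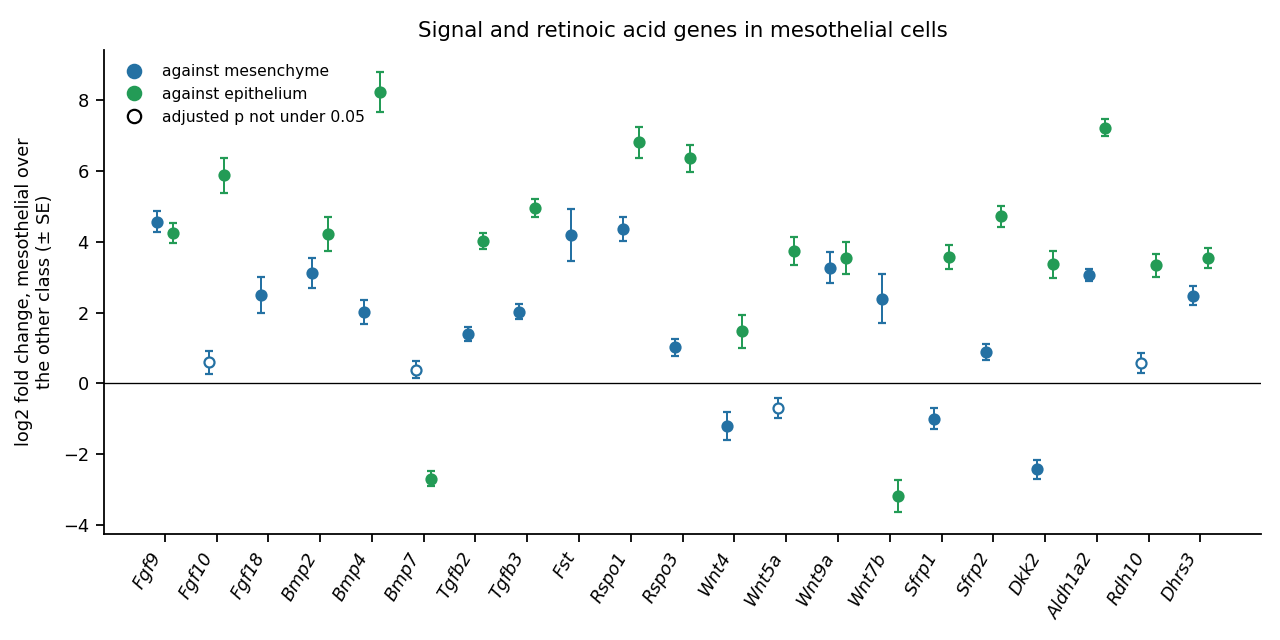
Log2 fold change of mesothelial cells against mesenchyme and against epithelium for genes of retinoic acid, Wnt, FGF, BMP and TGF-beta signalling, with bars of 1 SE and open points where the test was not passed. Points are left out against epithelium where that class held no UMI (Fgf18 and Fst). Fgf9, Rspo1, Aldh1a2 and Bmp4 lie above 0 in both comparisons, and Dkk2, Sfrp1 and Wnt4 lie below 0 against mesenchyme.

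Of 22 transcription factors of the coelomic lining and its derivatives, 8 were higher, 5 lower and 9 did not pass (median 0.29). Bnc1, basonuclin (chromosome 7, 81966672 to 81992292, minus strand), was at 113 and 97.9 CPM against 3.19 and 3.77 (log2 fold change 4.81 ± 0.21). Lhx9, a LIM homeobox factor of the coelomic lining and gonad, was at 92.1 and 54.4 CPM against 2.39 and 1.79 (5.00 ± 0.24). Both lay far above mesenchyme in each library. Gata4 and Gata6 were higher by 3.19 ± 0.39 and 2.36 ± 0.20, and Tead1, the DNA-binding partner of Yap, by 0.58 ± 0.16. Tbx3 was lower (3.64 and 1.94 CPM against 60.9 and 37.6), as was Tcf21, a fibroblast factor. Nr2f2, Meis1 and Meis2, each above 200 CPM in both libraries, had log2 fold changes between -0.09 and 0.20 and did not pass. Tbx18, another factor of the coelomic lining, was at 1.66 and 8.93 CPM and was not tested.

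Barx1 was read as a marker of the stomach and spleen mesenchyme, with 79.8 and 101 CPM in mesothelial cells against 20.7 and 19.4 in mesenchyme (log2 fold change 2.07 ± 0.18). Tlx1, which the spleen anlage needs, was at 0 and 1.17 CPM against 8.26 and 10.1. Of the markers of kidney and gonad, which also make Wt1, 2 of 8 could be tested and Amhr2 was higher (6.29 and 10.1 CPM against 0.29 and 1.28). The 8 markers summed to 10.6 and 12.4 CPM in mesothelial cells, 2.10 and 2.49 in mesenchyme and 13.8 and 15.1 in epithelium. In each mesothelial sum 4 of the 8 were at 0, among them Nr5a1 and Pax2.

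**Figure D4:**
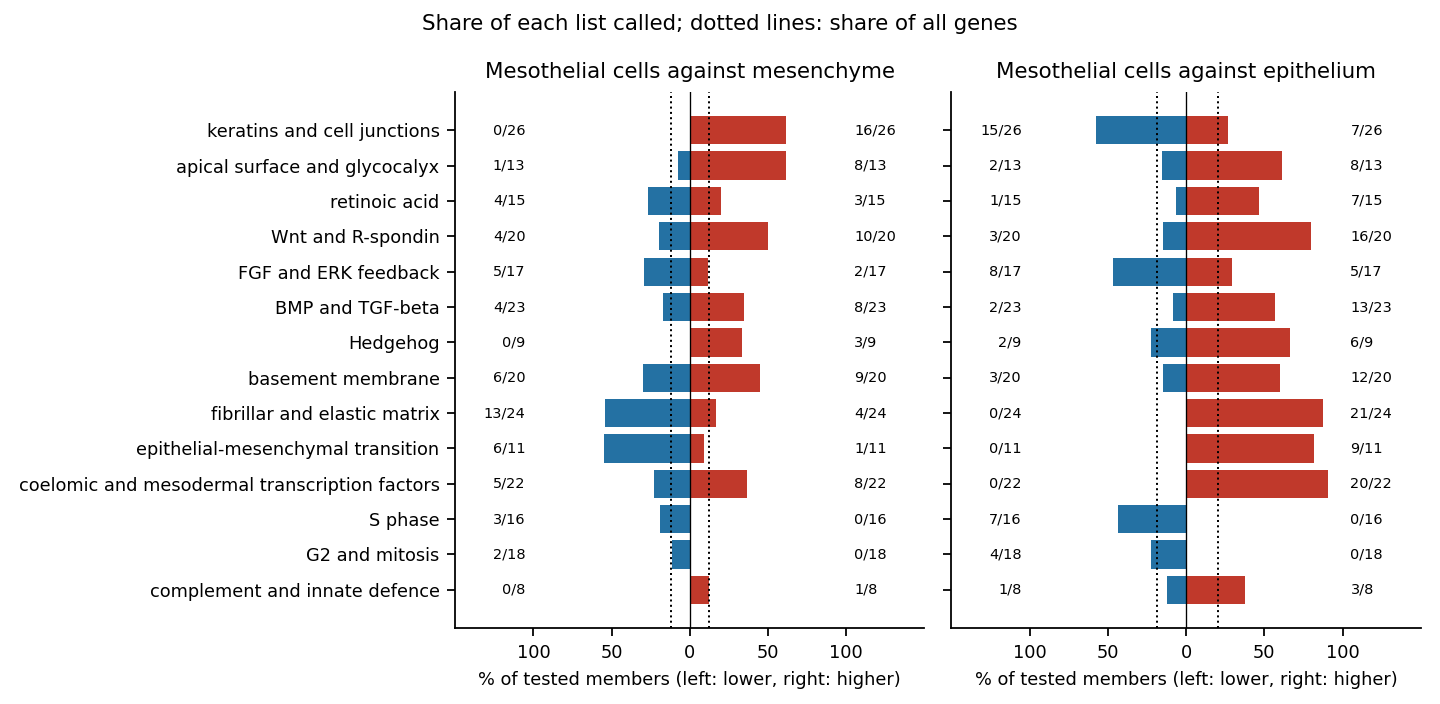
Share of the tested genes of 14 lists that were higher (right) or lower (left) in mesothelial cells than in mesenchyme and than in epithelium, with the counts printed and dotted lines at the share of all genes (12.3% and 12.3%, then 20.4% and 18.6%). Keratins and junctions reach 16 of 26 higher against mesenchyme and 15 of 26 lower against epithelium, and the fibrillar matrix list turns from 13 of 24 lower to 21 of 24 higher.

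The second comparison asked what separates this mesodermal lining from the pancreatic epithelium. Mesothelial cells were higher in 21 of 24 fibrillar and elastic matrix genes, in 20 of 22 transcription factors of the coelomic lining, and in mesothelial surface genes such as Lrrn4 and Podxl. They were lower in Cdh1, in the claudins of simple epithelia (Cldn3, Cldn4, Cldn6, Cldn7) and in the pancreatic factors Pdx1, Nkx6-1, Sox9 and Neurog3. Of 12613 genes tested with edgeR, 2568 were higher (20.4%) and 2351 lower (18.6%), with a median log2 fold change of -0.02. Without the library block the counts were 1516 and 1030, without library 1 1514 and 1020, and without library 2 1308 and 856. Of the genes named here, Ctrb1, Gata6 and Lum did not pass against epithelium without the block, and Hbb-bs, Meis2 and Pcna did not without the block or without library 1. Cdk1, Fgfr3, Id3, Krt7, Ptch1, Smo, Tead1 and Wnt4 failed without the block and without either library. Rnf43 failed without library 1, Cldn1, Fgf2, Frem1, Fst and Wnt9a without library 2, and Amhr2, Laptm5 and Smad6 without either library. Both comparisons use the same mesothelial sums, so the results are set side by side and not as separate evidence.

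The genes furthest above epithelium were largely genes already described. Bnc1 was at 0.10 and 0.18 CPM in epithelium, which gave a log2 fold change of 9.16 ± 0.33 with an adjusted p of 2.06e-09. Lhx9 followed at 8.93 ± 0.36, Bmp4 at 8.24 ± 0.56, Lrrn4 at 8.08 ± 0.29 and Aldh1a2 at 7.23 ± 0.23. Nr2f1, an orphan nuclear receptor, was at 192 and 82.7 CPM against 0.51 and 0.72 in epithelium. Cav1, caveolin, was at 353 and 605 CPM in mesothelial cells and 1.33 and 4.04 in epithelium, but endothelium held more of it (582 and 792 CPM).

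Fgf18 and Fst had no UMI in the epithelium of either library. Against a floor of 3 counts over the class, Fgf18 was at least 72.4-fold higher and Fst at least 44.04-fold higher in mesothelial cells, from 46 and 28 UMIs.

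Keratins and junctions had the opposite tendency to that against mesenchyme, with 7 of 26 genes higher, 15 lower and 4 not passing (median -1.21). Krt19 was higher in mesothelial cells than in epithelium (34.6 and 35.0 CPM there, log2 fold change 2.35 ± 0.22) and Krt7 by 0.98 ± 0.28, a call that was lost without the block (adjusted p = 0.169) and without library 1 or 2. Krt8 and Krt18 were lower, by log2 fold changes of -3.40 ± 0.30 and -1.79 ± 0.28. Krt8 was at 202 and 287 CPM in epithelium and Krt18 at 189 and 365. The 4 keratins thus did not share a direction between the 2 epithelial sheets. Cdh1 was at 181 and 242 CPM in epithelium (-4.62 ± 0.36), whereas Cdh3, F11r, Cgn and Pard6b did not pass. Cldn1 and Cldn15 were higher, with Cldn15 at 8.28 and 15.9 CPM against 0.20 and 0.18.

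On the free surface, 8 of 13 genes were higher and 2 lower than in epithelium (median 2.25). Podxl had a log2 fold change of 6.63 ± 0.21 and Ezr, which both sheets held, of 0.93 ± 0.17. Muc1, the mucin of ductal surfaces, was lower (0.99 and 2.72 CPM against 30.4 and 47.3). Matrix genes rose together, with 21 of 24 fibrillar and elastic genes higher and 0 lower (median 3.94), among them Col1a1 (5.36 ± 0.37) and Dcn (5.66 ± 0.27). The epithelial rule asked for little Col3a1, and the part of that choice in these calls was not tested. In the basement membrane list, 12 of 20 were higher and 3 lower (median 1.39). Nid2, nidogen, was at 145 and 213 CPM against 1.53 and 3.74 (5.98 ± 0.23), and Lama5 was not shown to differ (33.1 and 44.7 against 34.5 and 34.04).

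Signals against epithelium were mostly higher. In the Wnt list 16 of 20 were higher and 3 lower (median 2.20), and Wnt7b, an epithelial ligand, was among the lower (2.65 and 6.22 CPM against 52.7 and 24.6). In the BMP and TGF-beta list 13 of 23 were higher and 2 lower (median 1.04, or 1.29 with Fst at its bound and 1 gene under the floor left out). Hedgehog had 6 of 9 higher and 2 lower (3.32, or 3.50 without 1 gene under the floor), and retinoic acid 7 of 15 higher and 1 lower (0.15). The FGF list went the other way, with 5 of 17 higher and 8 lower (-0.84). The ligands Fgf9, Fgf2, Fgf10 and Fgf18 were among the higher, and the receptors Fgfr2, Fgfr3 and Fgfr4 among the lower. Fgfr2, the receptor through which epithelium reads Fgf10, was at 1.99 and 4.27 CPM against 59.5 and 43.02. Of the transcription factors of the coelomic lining, 20 of 22 were higher and 0 lower (3.54). Gata4, which both sheets held, did not pass (21.5 and 24.9 CPM against 19.5 and 34.2).

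The 8 genes named as furthest below epithelium were 1700011H14Rik, Cldn3, Gc, Neurog3, Gpx2, Mecom, Tmem54 and Nkx6-1, with log2 fold changes from -5.80 (1700011H14Rik) to -5.24 (Nkx6-1). Neurog3, the factor that starts endocrine differentiation, was at 1.99 and 2.72 CPM in mesothelial cells and 58.6 and 148 in epithelium. Gc encodes the vitamin D-binding protein, and it was at 0.66 and 5.83 CPM against 108 and 150. The lists of pancreatic epithelium, acinar and endocrine cells were lower at 7 of 7, 8 of 8 and 10 of 10 genes.

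RNA of other cell types was read in the mesothelial sums and barcodes. The mesothelial rule barred Ptprc and Pecam1, whereas the mesenchymal one did not. In mesenchyme, 211 of 1557 and 49 of 3404 barcodes held Ptprc or Pecam1 in libraries 1 and 2. The part of this in the endothelial and leukocyte markers that were lower than in mesenchyme was not tested. The summed level of 7 endothelial markers was 38.4 and 62.2 CPM, against 23.4 and 61.9 in mesenchyme and 2720 and 3931 in endothelium, with Cldn5 at 0.33 and 0 CPM. Kdr, a receptor for VEGF, was the 1 marker of this list that was higher than in mesenchyme (20.2 and 27.6 CPM against 3.62 and 7.73), while Cdh5 and Tek were lower. The 7 leukocyte markers summed to 34.5 and 42.3 CPM, against 70.8 and 90.5 in mesenchyme, with 2 lower and 0 higher. One of these, Laptm5, had the opposite sign in the mesothelial cells with little Col3a1 (0.83). Leukocyte RNA lay mostly in those cells: the sum was 87.3 and 310 CPM in barcodes under the Col3a1 bar of 5 per 10000 and 9.29 and 12.9 CPM in the others. Against epithelium, 6 of 7 leukocyte markers were higher in all mesothelial cells and 0 of 7 in those at or over the bar. Of the pericyte and smooth muscle list, 4 of 7 were lower and 0 higher.

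The 8 acinar markers summed to 47.4 and 406 CPM in mesothelial cells and 72.2 and 427 CPM in mesenchyme, and 0 of 8 passed in either direction between these classes. In library 2, 648 of the acinar UMIs came from the 27 barcodes under the Col3a1 bar (2539 CPM) and 397 from the other 290 (171 CPM). In library 1 the sums were 83.2 and 30.3 CPM. With the barcodes under the bar left out, 2 of 8 acinar genes were lower than in mesenchyme and 0 higher. Ctrb1, chymotrypsinogen B, was at 7.62 and 156 CPM in mesothelial cells and 8.55 and 158 in mesenchyme, against 772 and 2489 in epithelium. In library 2 it was at 944 CPM under the bar and 68.99 at or over it. Haemoglobin RNA was also present in each class, at 3196 and 1562 CPM of Hbb-bs in mesothelial cells. At least 3 of 7 pancreatic epithelial markers were found in 0.89% and 1.58% of mesothelial barcodes, and Epcam at 1 or more UMI in 13 (5.80%) and 26 (8.20%). Doublet calls marked 1 and 9 mesothelial barcodes. Few calls were made at all in library 1, with 6 among 3406 passing barcodes against 168 among 6764 in library 2.

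Mesothelial barcodes varied in Col3a1, the gene that defines the mesenchyme here. Its median was 7.38 and 15.9 UMIs per 10000 in libraries 1 and 2, against 11.3 and 24.2 in mesenchyme. In library 1, 155 of 224 (69.2%) reached the mesenchymal bar of 5, and in library 2 290 of 317 (91.5%). Most mesothelial barcodes therefore also met the Col3a1 bar.

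The barcodes below the bar, 69 and 27 in number, were set beside those at or above it as a description without a test, since the split uses a measured gene and the smaller sum held 255208 UMIs. They were of like depth (medians 10187 and 7168 UMIs against 10696 and 6926.5) and held medians of 7 and 8 mesothelial markers against 8 and 8. Podxl was at 296 CPM below the bar and 279 above it in library 1, and at 376 and 467 in library 2. Krt19 was at 143 and 148 CPM in library 1 and 290 and 238 in library 2. Podxl and Krt19 thus did not differ in the same direction in both libraries. Some other named genes did, and they went both ways. Lhx9 was at 147.9 CPM below the bar and 65.5 above it in library 1, and at 156.7 and 43.1 in library 2. Krt18, Tm4sf5 and Ildr2 were also higher below the bar in both libraries. Lrrn4 was lower below it, at 100.6 and 118.3 CPM in library 1 and 129.3 and 232.0 in library 2, as was Upk1b in both libraries. Col1a1 was at 366 CPM below the bar and 948 above it in library 1, and at 360 and 1656 in library 2. Dcn was at 137 and 295, then 145 and 424. Zeb2 was low on both sides (10.3 and 9.29, then 7.84 and 14.2) and far from mesenchyme. Cdh1 was at 19.5 CPM below the bar and 2.44 above it in library 1 and at 58.8 and 5.17 in library 2, and Sox9, a factor of the pancreatic epithelium, at 29.8 and 3.42, then 23.5 and 5.17. Acinar and leukocyte RNA was also higher below the bar, as given above for both lists, with C1qb, a complement gene of macrophages, at 17.46 and 1.47 CPM in library 1 and 141 and 2.16 in library 2. The part that RNA of these other cell types has in the barcodes with little Col3a1 was not tested. Of 11720 genes tested with the barcodes under the bar alone, 719 were higher and 833 lower than in mesenchyme. Against epithelium the counts were 1189 and 906. Of 11 genes of the mesenchyme list, 10 were then lower than in mesenchyme and 0 higher. Of 24 fibrillar and elastic matrix genes, 16 were lower and 1 higher. With the barcodes at or above the bar alone, an alternative added after seeing the data, the counts were 1372 and 1467, and 2404 and 2289. There 7 of 11 and 12 of 24 genes of these lists were lower than in mesenchyme, with 0 and 4 higher. The split uses Col3a1, itself a collagen gene, and the list counts are given as a description.

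**Figure D5:**
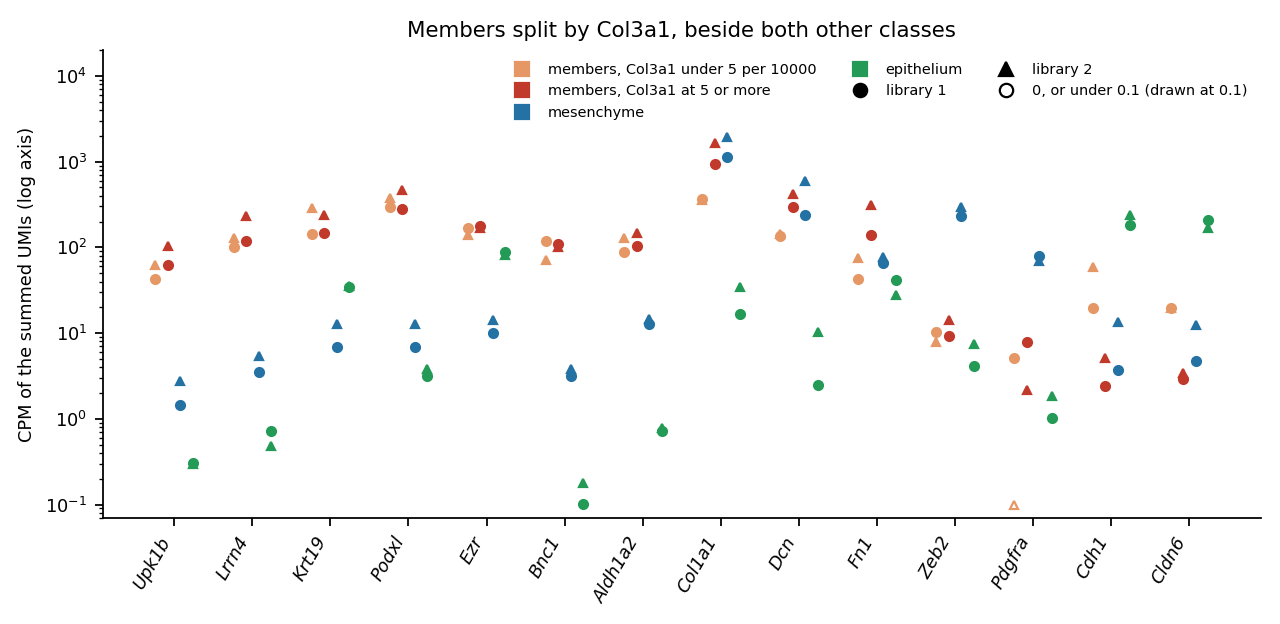
CPM (log axis) of 14 genes in mesothelial barcodes under and at or over 5 Col3a1 UMIs per 10000, in mesenchyme and in epithelium, with 1 point for each library and zeros drawn open at the floor. Podxl and Lrrn4 are far above mesenchyme on both sides of the bar, Col1a1 and Dcn are higher at or over it, and Cdh1 and Cldn6 are higher under it.

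No cell cycle gene of the 2 lists was higher than in mesenchyme or in epithelium. Over all genes, 12.3% were higher and 12.3% lower than in mesenchyme. Against mesenchyme, 0 of 16 S phase genes were higher, 3 lower and 13 did not pass (median -0.26), and 0 of 18 genes of G2 and mitosis were higher, 2 lower and 16 did not pass (-0.32). Pcna, the sliding clamp of DNA synthesis, was at 55.3 and 35.0 CPM against 101 and 72.7 (log2 fold change -1.04 ± 0.21), and Cdk1, the mitotic kinase, at 57.97 and 84.3 against 113 and 147 (-0.98 ± 0.15). Top2a, a topoisomerase of dividing cells, was at 261 and 251 CPM against 342 and 176 and did not pass. Against epithelium, 0 S phase genes were higher and 7 lower, and 0 genes of G2 and mitosis were higher and 4 lower (medians -0.55 and -0.31). Over all genes, 20.4% were higher and 18.6% lower than in epithelium. The lower counts of G2 and mitosis lay near the shares of all genes in both comparisons. The lower S phase count against epithelium lay above its share. After thinning to 3000 UMIs, Top2a was present in 29.9% and 34.5% of mesothelial barcodes, 26.4% and 20.2% of mesenchymal and 51.8% and 42.7% of epithelial ones. At least 3 of the 18 mitotic genes were present in 32.6% and 44.3% of mesothelial barcodes after thinning, against 25.5% and 23.7% in mesenchyme, and in 49.1% and 58.04% against 32.9% and 27.2% before it. The shares and the CPM do not order mesothelial cells and mesenchyme the same way, so no order is read from them.

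Of 8 complement and innate defence genes tested, 1 was higher than in mesenchyme and 0 lower (median -0.13). Over all genes 12.3% were higher and 12.3% lower, so 1 of 8 does not set this list apart. Clu, clusterin, was the higher gene, at 17.2 and 19.4 CPM against 2.61 and 9.39 (log2 fold change 1.66 ± 0.31). Against epithelium 3 were higher and 1, again Clu, was lower (72.4 and 146 CPM in epithelium). The shares of all genes there were 20.4% and 18.6%.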

How the data were processed

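Per the submitters' processing notes, the authors used Cell Ranger 2.0.2 and the mm10 build; the deposited droplet files hold raw UMI counts per gene and barcode (3764 and 7140 barcodes), with the annotation not given in the sources used here. Barcodes with at least 1000 genes and under 10% mitochondrial UMIs were kept (355 and 272 fell short of the first bar, 3 and 106 of the second). The cells and gene lists were chosen with earlier results of these data known. UMI counts were summed over barcodes of 5 classes in each library, 10 sums in all, and tested in edgeR 4.0.16 (R 4.3.3; TMM, filterByExpr, two-sided quasi-likelihood F test, library as a block, Benjamini-Hochberg). Classes share a library, and their differences between libraries correlated across genes (r = 0.72 with mesenchyme, 0.67 with epithelium), which is the ground for the block. SE was taken as the size of each log2 change divided by the square root of its F statistic.

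The genes of the gates (Upk3b, Wt1, Ptprc, Pecam1, Col3a1, Epcam) were not tested. Named genes were the 12 highest and 8 lowest log2 fold changes among genes that passed, that averaged 50 CPM or more in the higher class and did not overlap between libraries, plus list members, and a few of these genes are not reported here. Endothelial and leukocyte sums entered the fit to share the estimate of the spread. Barcodes were thinned with seed 1, doublets were called with scrublet in scanpy 1.11.5 and kept in the main analysis (6 and 168 calls), and Python was 3.11.15. Gene positions are from GENCODE on GRCm38. The steps were tested on simulated data. Alternatives were DESeq2 1.42.0, other filters, gates, depth windows and samples. The sorted Smart-seq2 cells were not analysed here.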

Additional observations from a re-analysis of the deposited data

How the results depend on the processing

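Against mesenchyme, the counts of higher and lower genes were 628 and 437 without the library block (no pairing of sums by library), 719 and 833 with mesothelial cells under the Col3a1 bar, 854 and 774 with barcodes of 5000 to 20000 UMIs (chosen after seeing the data), and 623 to 759 and 439 to 650 with 1 library left out. Against epithelium they were 1516 and 1030 without the block, 1189 and 906 under the Col3a1 bar, 1420 lower genes in the depth window, and 1308 to 1514 and 856 to 1020 with 1 library left out. With 1 library left out, the lone sum is assumed to vary like the other classes. The other alternatives stayed within 1.5 times of 1550 and 1553, and of 2568 and 2351, and DESeq2 gave 1360 and 1111, and 2363 and 1798. Restriction to cells under the Col3a1 bar turned the sign of Fn1 (-0.59), Laptm5 (0.83) and Sfrp2 (-0.078) against mesenchyme, and of Lama4 (-0.33) and Twist2 (-4.42) against epithelium. Restriction to cells at or over it, also added after seeing the data, turned C1qb (-1.01), Fcer1g (-0.39), Laptm5 (-0.93) and Tyrobp (-0.51) against epithelium. In none of these did the new value pass. The cause was not tested. Of 157 called genes (all called list members and the genes named by rule) against mesenchyme and 231 against epithelium, the block's removal ended the call of 57 and 55 and turned none, leaving out library 1 ended 40 and 51, and leaving out library 2 ended 53 and 50. The mesothelial share was 5.05% and 3.70% with 2 or more Upk3b UMIs, and 7.07% in library 2 with 2000 genes. Low genes such as Msln and Tbx18 could not be tested at this depth. The description of sorted Smart-seq2 cells was not run.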
